A study of Mus musculus with 6 samples.

Results

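Catecholamines are the transmitters dopamine, noradrenaline and adrenaline. Here 9 genes that make, move or break them down were described in enterospheres, which are floating spheres of neural progenitors cultured out of the gut muscle of newborn mice. The genes were taken by name: Th, Ddc, Dbh and Pnmt for synthesis, Slc6a2, Slc18a1 and Slc18a2 for transport, and Maoa and Maob for breakdown. Each had 1 probe set with a single gene symbol, so all 9 were measured, among 19938 genes in all.

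Both groups came from wild-type C57BL/6 mice at most 12 hours old, and each of the 6 samples pooled cells of 3 animals. The spheres had been grown for 4 and then 5 days with epidermal and fibroblast growth factor, and were then kept for 1 day in a differentiation medium without them that contained ascorbic acid-2-phosphate. The T3 group, of 3 samples, next spent 1 day with triiodothyronine (T3), the active thyroid hormone, at 100 nM (the labels write the unit as nm, read here as nM). The control group, also of 3 samples, was kept without it for the same day. Whole spheres mix cell types. A change in the number of cells of a type and a change in RNA per cell cannot be told apart in any value below.

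Catecholamine synthesis starts from tyrosine. Tyrosine hydroxylase (Th) makes L-DOPA in the limiting step, aromatic amino acid decarboxylase (Ddc) makes dopamine, dopamine beta-hydroxylase (Dbh) makes noradrenaline inside vesicles, and Pnmt methylates it to adrenaline. Vesicular transporters load the amines into vesicles, the noradrenaline transporter takes them back into the cell, and the monoamine oxidases on the outer mitochondrial membrane degrade them. In the gut, most noradrenaline comes from sympathetic fibres that enter from outside, but precursors of enteric neurons pass through a stage with catecholaminergic enzymes, and a few enteric neurons remain dopaminergic.

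With T3, Dbh and Maob were higher, and the other 7 genes did not pass the test. Dbh signal rose 1.87-fold and Maob signal 2.27-fold. A gene was called where the Benjamini-Hochberg adjusted p of limma's test over all genes was under 0.05. Over all 19938 genes that test called 3.10%, with 2.28% higher and 0.823% lower in T3. The values of the groups did not overlap for 4 of the 9 genes, Dbh, Maob, Ddc and Slc18a1, beside 19.5% of all genes. The values are log2 signals of a probe set, so a step of 1 is a 2-fold difference in signal. Probe sets differ in how strongly they bind, and no level is therefore set against that of another gene. The percentile given with a control level is the place of that probe set's mean among all genes tested.

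**Figure D1:**
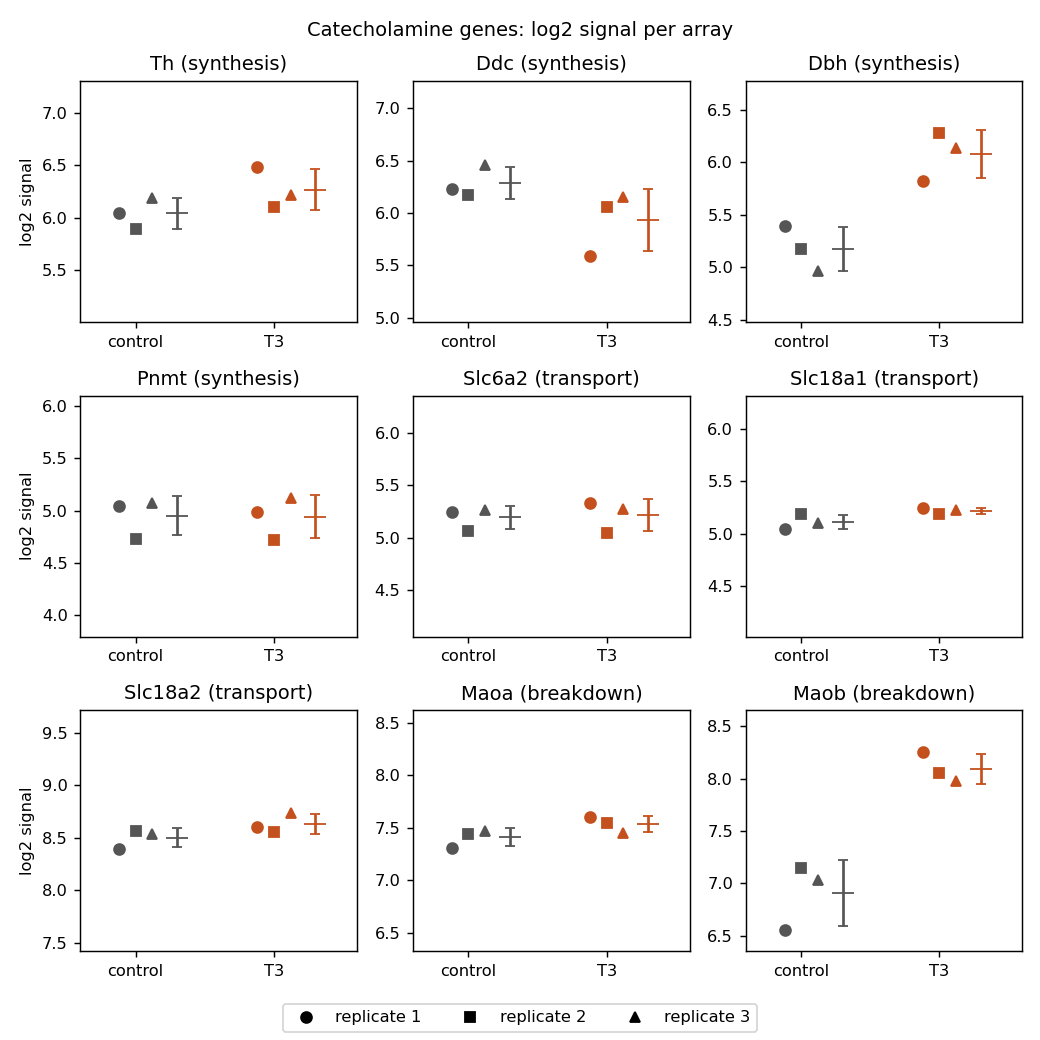
Log2 signal of each of the 9 genes on the 3 control and 3 T3 arrays, marker shapes giving the replicate number and bars the mean ± SD of a group; every panel spans the same height. The T3 values of Dbh (5.82 to 6.28) and Maob (7.98 to 8.25) lie well above their controls, while the other panels show small steps or overlap.

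Of the 4 synthesis genes, Dbh was the one that passed. Its probe set (10470412) read 5.39, 5.17 and 4.96 in the control samples and 5.82, 6.28 and 6.14 in the T3 samples. Every T3 value lay above every control value, and the nearest pair, both of replicate number 1, were 5.82 and 5.39. The mean was 5.17 ± 0.21 (SD, n = 3) in controls and 6.08 ± 0.23 (SD, n = 3) with T3. This gave a log2 change of 0.91 ± 0.14 (SE) with adjusted p = 0.0126 (limma). The control level stood at the 26.5th percentile of all genes. Without detection calls, Dbh cannot be said to stand above background in the controls, and the fold can understate the change. The call was narrowly lost without T3 replicate 2 (adjusted p = 0.0501) or T3 replicate 3 (adjusted p = 0.0533), with log2 changes of 0.81 and 0.88.

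Th, which carries out the limiting step, read 6.04, 5.89 and 6.19 in the controls and 6.48, 6.10 and 6.21 in the T3 samples (probe set 10569370). The groups overlapped, since T3 replicate 2 lay below control replicate 3. The log2 change was 0.22 ± 0.12 (SE), its 95% interval ran from -0.04 to 0.49, and it did not pass (adjusted p = 0.478, limma). A rise of up to 1.40-fold in signal lies within that interval.

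Ddc, whose enzyme also makes serotonin from its precursor, had lower values with T3 without passing. The controls read 6.22, 6.17 and 6.46 and the T3 samples 5.59, 6.06 and 6.15 (probe set 10384378). All 3 T3 values lay below the controls, T3 replicate 1 by far the most. The log2 change was -0.35 ± 0.15 (SE), with an unadjusted p of 0.0434 and adjusted p = 0.340 (limma). Without T3 replicate 1 the log2 difference was -0.18. Groups that do not overlap with T3 lower made up 7.55% of all genes.

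Pnmt, the enzyme of adrenaline synthesis, stood at the 23.1st percentile in controls and showed no separation of the groups. It read 5.05, 4.73 and 5.07 without T3 and 4.99, 4.72 and 5.12 with it (probe set 10380891). Replicate 2 was the lowest array in both groups. The log2 change was -0.0084, with a 95% interval from -0.30 to 0.28, and its sign turned with the scaling and the arrays used.

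To show the gene that rose beside the pathway's limiting enzyme, the 250 bases before the RefSeq start sites of Dbh (build GRCm38.p6, chr2:27165257-27165506, plus strand) and Th (chr7:142899996-142900245, minus strand) are given 5′ to 3′. Capitals mark matches, on either strand, to any of 6 searched motifs. These were the thyroid hormone receptor half-site AGGTCA, 2 such half-sites on the same strand spaced by 4 bases, and the cAMP response element TGACGTCA. The others were the GC box GGGCGG, the CACCC box CACCC and the homeodomain motif TAATTA.
Dbh: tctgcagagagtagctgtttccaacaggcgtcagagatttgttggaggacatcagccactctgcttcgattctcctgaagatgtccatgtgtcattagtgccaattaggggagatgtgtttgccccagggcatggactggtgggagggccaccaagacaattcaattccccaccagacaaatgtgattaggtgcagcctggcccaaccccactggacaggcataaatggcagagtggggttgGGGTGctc
Th: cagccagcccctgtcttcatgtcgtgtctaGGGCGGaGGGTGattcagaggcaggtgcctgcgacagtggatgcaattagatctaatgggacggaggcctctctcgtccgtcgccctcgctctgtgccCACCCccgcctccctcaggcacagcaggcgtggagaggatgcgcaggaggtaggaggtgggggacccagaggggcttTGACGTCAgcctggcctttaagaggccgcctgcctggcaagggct

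The Dbh window held 1 match, a CACCC box on the opposite strand that begins 8 bases before the start. CACCC boxes are common: 52% of the 32851 RefSeq promoter windows of this length held one. The Th window held the cAMP response element, 45 to 38 bases before the start, a motif found in 1.55% of windows, together with 1 GC box (32.7% of windows) and 2 CACCC boxes. Neither window held the half-site AGGTCA (14% of windows), the spaced pair (0.0152%) or the homeodomain motif TAATTA (4.84%). Shorter homeodomain sites such as ATTA were not searched, and both printed windows contain that sequence. Of the other members' windows, the first of 2 listed for Ddc held 1 half-site, on the opposite strand 73 to 68 bases before the start, and those of Slc18a2 and Maoa held none. These are matches of letters in a short window and say nothing about binding. RefSeq windows were matched for 5 of the 9 genes, Th, Ddc, Dbh, Slc18a2 and Maoa.

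None of the 3 transporter genes passed the test. Slc18a2, the vesicular monoamine transporter of neurons, stood at the 71.6th percentile in controls. Its probe set (10464370) read 8.40, 8.57 and 8.54 in controls and 8.61, 8.55 and 8.74 with T3. The groups overlapped at T3 replicate 2. The log2 change was 0.13 ± 0.08 (SE), with a 95% interval of -0.06 to 0.32 and adjusted p = 0.590 (limma). The interval thus allows a rise of up to 1.25-fold in signal.

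Slc18a1, the vesicular transporter of endocrine and chromaffin cells, and Slc6a2, the noradrenaline transporter, both had control levels near the 26th percentile (25.7 and 26.8), and neither is known to be above background. Slc18a1 (probe set 10579023) read 5.05, 5.19 and 5.11 in controls and 5.25, 5.19 and 5.23 with T3. The T3 values were all higher, the nearest pair both rounding to 5.19, as in 11.9% of all genes. The log2 change of 0.11 had adjusted p = 0.610 (limma). Slc6a2 (probe set 10573956) read 5.25, 5.06 and 5.27 in controls and 5.33, 5.04 and 5.27 with T3. Its log2 change was 0.02, with a 95% interval of -0.20 to 0.25, and the sign turned with the scaling and the arrays used.

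The 2 monoamine oxidase genes gave unlike values. They lie next to each other on the X chromosome, with no other protein-coding gene between them in the RefSeq table of GRCm38.p6. Their enzymes differ in preference: MAO-A chiefly degrades serotonin and noradrenaline, MAO-B phenylethylamine, and both degrade dopamine. In the brain MAO-B is found in astrocytes and serotonergic neurons, and MAO-A in catecholaminergic neurons.

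Maob (probe set 10603746) read 6.55, 7.15 and 7.03 in the controls and 8.25, 8.05 and 7.98 in the T3 samples. The groups were far apart, and control replicate 1 was the lowest array. The mean rose from 6.91 ± 0.31 (SD, n = 3), at the 49.5th percentile of genes, to 8.09 ± 0.14 (SD, n = 3). This was a log2 change of 1.18 ± 0.15 (SE) with adjusted p = 0.00578 (limma), and a 95% interval of 1.79- to 2.87-fold in signal. The call held without any 1 of the 6 arrays, with log2 changes of 1.00 to 1.30 and adjusted p up to 0.0274.

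Maoa (probe set 10598771) read 7.31, 7.44 and 7.47 in the controls and 7.60, 7.55 and 7.45 with T3. The groups overlapped, T3 replicate 3 lying within the control range. Its log2 change was 0.13 ± 0.08 (SE), with a 95% interval of -0.05 to 0.30 and adjusted p = 0.575 (limma). Slc18a2 and Maoa passed only when arrays were weighted by quality (both adjusted p = 0.0491), a setting that called 3548 genes in place of 618.

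**Figure D2:**
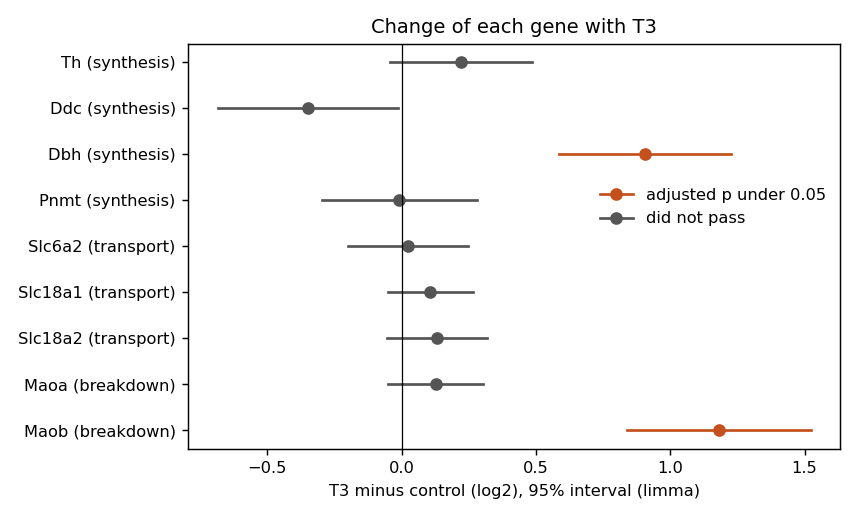
T3 minus control on the log2 scale for the 9 genes, with points for the limma estimate and lines for its 95% interval (3 against 3 arrays). The intervals of Dbh (0.59 to 1.23) and Maob (0.84 to 1.52) lie apart from 0, those of 6 genes include 0, and that of Ddc ends at -0.01 without passing after adjustment.

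How far 2 genes changed by different amounts was read from their within-array difference for 4 pairs, with an exact two-sided permutation test over the 6 arrays, whose smallest possible p is 0.1. The change of Maoa minus that of Maob was -1.05, and the within-array differences did not overlap between the groups (exact p = 0.1, adjusted over the 4 pairs 0.2). Slc18a2 minus Dbh gave -0.78, also without overlap (exact p = 0.1, adjusted 0.2). Dbh minus Th gave 0.68 with overlap (exact p = 0.2, adjusted 0.267), since T3 replicate 1 had the highest Th and the lowest Dbh value of its group. Slc18a2 minus Slc18a1 gave 0.02 (exact p = 0.8). Whatever the values, this test could not reach 0.05 with 3 arrays a group, so it settles none of the pairs. The 95% intervals of the single changes (limma) were -0.05 to 0.30 for Maoa and 0.84 to 1.52 for Maob. They were 0.59 to 1.23 for Dbh, -0.06 to 0.32 for Slc18a2 and -0.04 to 0.49 for Th. Each interval is that of a single gene, is unadjusted and leaves out the within-array differences, which overlapped for Dbh minus Th. The intervals are therefore no test of a pair.

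Over the wider pathway, 68 of 83 listed genes outside the 9 were measured, of which 8 rose, 3 fell and 57 did not pass. That is 16.2% called, beside 3.10% of all genes. The 10 lists behind this count were drawn up with earlier results of these data known, so the share is a description of the lists only. The remaining listed genes were not analysed here.

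Cyb561 had the largest rise in these lists. It encodes cytochrome b561, which passes electrons from ascorbate across the membrane of catecholamine vesicles and so keeps Dbh supplied with reduced ascorbate. Its values were 7.34, 7.41 and 7.68 in controls and 8.72, 8.82 and 8.90 with T3, more than 1 log2 step between the groups. The log2 change was 1.34 ± 0.10 (SE), a 2.53-fold difference in signal, with adjusted p = 0.000617 (limma). It passed without any 1 array. The other 5 measured genes of copper, iron and ascorbate supply, such as the ascorbate transporter gene Slc23a2 at 0.16 (adjusted p = 0.324, limma), did not pass.

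Slc29a4, the plasma membrane monoamine transporter with low affinity and high capacity, also rose. It read 8.74, 8.85 and 8.84 in controls and 9.72, 9.50 and 9.53 with T3, again without overlap. The log2 change was 0.77 ± 0.08 (SE), adjusted p = 0.00271 (limma), and it passed without any 1 array. The dopamine transporter gene Slc6a3 (-0.06) and Slc22a2 (-0.02) did not pass.

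No gene of the tetrahydrobiopterin pathway, which supplies the cofactor of Th, passed the test over all genes. The smallest p values of the 7 measured were those of Gch1, the limiting enzyme, at 0.24 ± 0.07 (SE, adjusted p = 0.138, limma) and of Pcbd1, which regenerates the cofactor, at 0.33 (adjusted p = 0.306). At an unadjusted p under 0.05 there were 2 of 7, beside 13.7% of all genes (2737 of 19938). Of 8 measured genes of breakdown other than the monoamine oxidases, none passed and 1 had an unadjusted p under 0.05, the sulfotransferase gene Sult1a1 at -0.29 (adjusted p = 0.123). The aldehyde dehydrogenases, which take over the aldehydes that monoamine oxidases form, had log2 changes from -0.14 for Aldh1a1 to 0.14 for Aldh2.

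Transcription factors of noradrenergic neurons did not move as one: among the 17 measured, 2 rose, 3 fell and 12 did not pass. The test called 3.10% of all genes. At an unadjusted p under 0.05 (limma) there were 6 of the 17, beside 13.7% of all genes. Phox2a, a homeodomain factor that binds the Dbh promoter, went from 8.26, 8.32 and 8.49 to 8.88, 8.93 and 8.98. This is a log2 change of 0.58 ± 0.08 (SE, adjusted p = 0.00847, limma), lost without control replicate 1 (adjusted p = 0.0527). Hand1, a bHLH factor of sympathetic neurons, rose by 0.37. Sox11 (-1.21) and Insm1 (-0.37), factors of immature neurons, and Nr4a3 (-0.73), an immediate early nuclear receptor, fell. Hand2, a bHLH factor of autonomic neurons, was at -0.01 and Gata3 at -0.08, neither passing. Of the 6 fits without 1 array, Hand1 and Insm1 kept their calls only in that without control replicate 2, and their adjusted p reached 0.174.

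**Figure D3:**
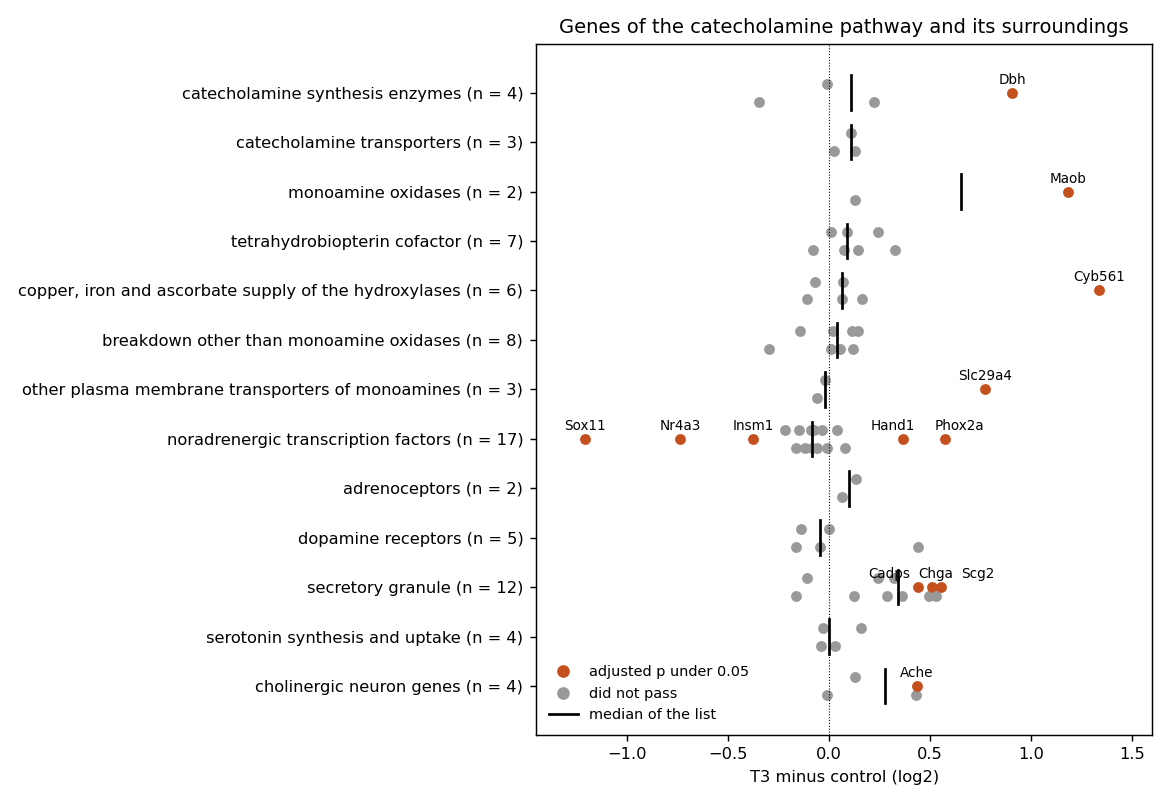
T3 minus control (log2) of each measured gene of the 3 groups above and of 10 further lists, one point a gene, coloured and named where the adjusted p was under 0.05, with a bar at the median of each list. Dbh, Maob, Cyb561 and Slc29a4 stand far to the right of the other genes of their lists, while most points lie near 0.

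Genes of secretory granules, in which catecholamines are stored with chromogranins, had a median log2 change of 0.34, against 0.01 over all genes. Of 12 measured, 3 rose, none fell and 9 did not pass, where the test called 3.10% of all genes. At an unadjusted p under 0.05 (limma) there were 9 of 12, counting the 3 that rose, beside 13.7% of all genes. The list was drawn up with earlier results of these data known, so these shares only describe it. Chga, a chromogranin, rose by 0.51 ± 0.08 (SE), Scg2, a secretogranin, by 0.56 ± 0.11 (SE) and Cadps, a factor of granule exocytosis, by 0.44 ± 0.09 (SE), with adjusted p from 0.0156 to 0.0380 (limma). Leaving out replicate 1 or 3 of the T3 group, or replicate 1 of the controls, ended all 3 calls, and the adjusted p reached 0.143 over the 6 fits without 1 array. Scg5 just missed at 0.49 (adjusted p = 0.0522).

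Receptors of catecholamines did not pass. Drd2, the dopamine receptor gene of smallest p among 5, had a log2 change of 0.44 ± 0.12 (SE) with groups that did not overlap, at 5.49, 5.56 and 5.87 in controls and 6.03, 6.24 and 5.96 with T3 (adjusted p = 0.104, limma). It passed without control replicate 3 (adjusted p = 0.0384). The 2 adrenoceptor genes measured, Adra1b and Adra2c, had log2 changes of 0.13 and 0.07.

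Serotonin and acetylcholine genes were set beside these, because serotonin shares Ddc, the vesicular transporters and the monoamine oxidases. None of Tph1, Tph2, Slc6a4 and Aanat passed (log2 changes of -0.04 to 0.16, with 1 unadjusted p under 0.05, that of Tph1). All 4 were dim, with control means of 4.16 to 5.46, and none is known to be above background. Of the 4 cholinergic genes, Ache, acetylcholinesterase, rose by 0.43 ± 0.09 (SE, adjusted p = 0.0364), and of the 6 fits without 1 array only that without control replicate 2 kept the call, the largest adjusted p being 0.145. Slc18a3, the vesicular acetylcholine transporter, had a similar log2 change of 0.43 but wider spread (adjusted p = 0.182), and Chat was at -0.0096.

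The genes whose arrays most resembled those of Maob were Fgf10, Ntng1, Chchd10, Prex2 and Kcnj8. Likeness was the root mean square distance over the 6 arrays of the log2 values, each minus the gene's own control mean. It was 0.058 for Fgf10, a fibroblast growth factor, which read 6.09, 6.57 and 6.42 in controls and 7.67, 7.44 and 7.49 with T3. As with Maob, control replicate 1 was lowest and T3 replicate 1 highest. The other 4 lay at distances of 0.11 to 0.15, and all 5 were called. For Th the nearest genes were Fam180a, Cldn34-ps, Casr, Fads6 and Apln, at 0.033 to 0.053, and none of these passed. The distance takes in the step from control to T3. The calls and the like order of arrays therefore follow from how these genes were picked and are no separate result.

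The spheres carried the labelled neural progenitor signal, and markers of several cell types moved beside the results. The known T3 targets Klf9 and Hr rose by 1.86 and 1.92 on the log2 scale. Markers of enteric progenitors and glia had control means of 8.10 to 12.2, Sox10 and Erbb3 standing at 11.6 and 11.8, and none of 10 passed (2 at an unadjusted p under 0.05, beside 13.7% of all genes). The array means of that list overlapped, at 10.84 to 10.89 in controls and 10.73 to 10.86 with T3. Neuron markers had array means of 9.60 to 9.82 in controls and 9.86 to 9.96 with T3. Of the 11, Prph (0.94) and Snap25 (0.33) rose, and the median was 0.03. At an unadjusted p under 0.05 (limma) there were 4 of the 11, beside 13.7% of all genes. The call of Snap25 was lost without any 1 array.

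Means of further lists are given beside Dbh and Maob, and the share called over all genes was 3.10%. Markers of interstitial cells of Cajal had array means of 9.63 to 9.83 in controls and 10.01 to 10.09 with T3, and 2 of 4 rose, Prkcq at 0.73 and Ano1 at 0.43. Those of fibroblasts and mesenchyme had array means of 10.68 to 10.75 in controls and 10.80 to 10.88 with T3, and 1 of 8 rose, Thy1 at 1.24. Their median log2 change was -0.0029, and the 7 that did not pass ran from -0.24 to 0.10. The higher means of this list thus do not show a rise of its genes in common. Smooth muscle markers overlapped, at 7.71 to 7.84 and 7.76 to 7.81. Among the 7, Myh11 was higher (0.60) and Tagln (-0.72) and Acta2 (-0.38) lower. At an unadjusted p under 0.05 (limma) there were 6 of the 7, in both directions, beside 13.7% of all genes. Endothelial markers also overlapped, with Kdr lower (-0.41) among 5. Prkcq, Thy1 and Tagln passed in all 6 fits without 1 array, Kdr in 3, Ano1 in 1, and Acta2 and Myh11 in none (largest adjusted p 0.165). Markers of leukocytes (7 genes), mast cells (5) and epithelium (8) were dim, with median control percentiles of 24.5, 10.6 and 23.1, and none passed or had an unadjusted p under 0.05 (limma). The part of these shifts in the rise of Dbh, Maob, Cyb561 and Slc29a4 was not tested.

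**Figure D4:**
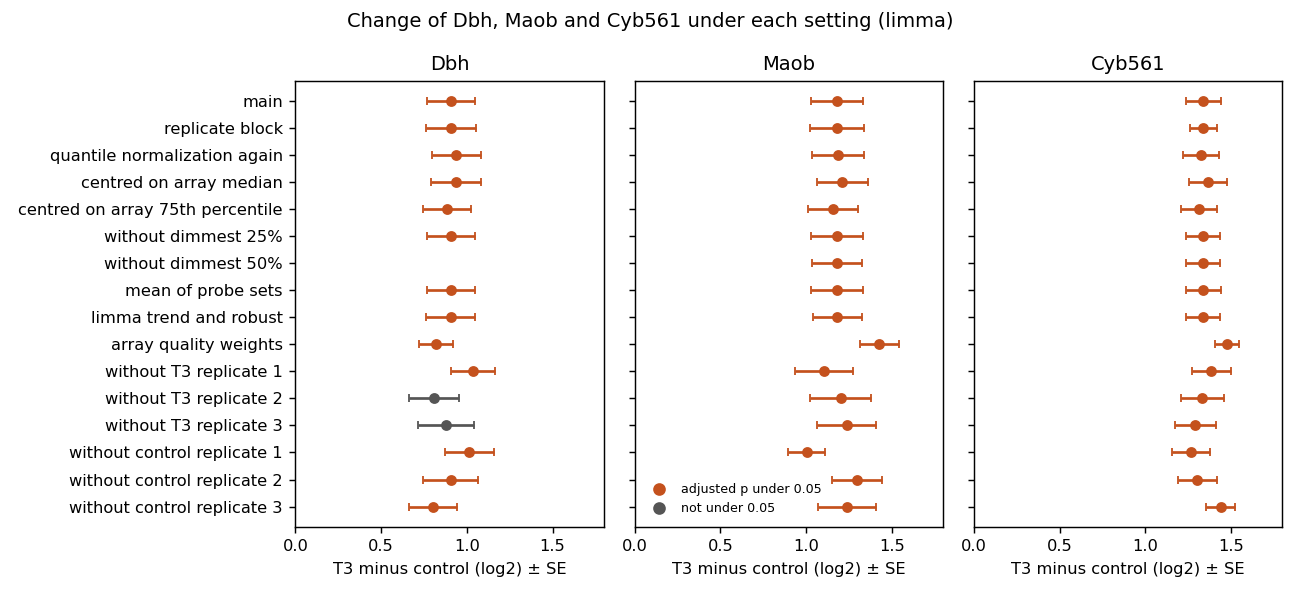
T3 minus control (log2) ± SE of Dbh, Maob and Cyb561 under the main setting and 15 alternatives, coloured by whether the adjusted p was under 0.05. Dbh moved between 0.80 and 1.03 and missed the threshold without T3 replicate 2 or 3 (its row is empty where the dimmest 50% of genes, to which it belongs, were left out), Maob moved between 1.00 and 1.43 and Cyb561 between 1.27 and 1.48.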

How the data were processed

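Total RNA from 6 samples was measured on Affymetrix mouse arrays, 1 array a sample. The authors deposited log2 expression values for 35556 probe sets, made with RMA and Partek 6.5 per the submitters' processing notes; settings and build: not given in the sources used here. Array medians lay between 6.09 and 6.15. Normalization of this kind removes changes common to most genes, and background compresses differences of dim ones. The array's platform annotation gave a single symbol to 21789 probe sets, several to 1621 and none to 12146. The probe set of highest mean stood for each of 19938 genes.

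T3 minus control was fitted with limma 3.58.1 in R 4.3.3 (lmFit, eBayes, two-sided). Adjustment was by Benjamini-Hochberg across all 19938 genes. The procedure was also run on simulated data with independent noise for each gene, which leaves out deviations shared by an array. That run does not check the calls made here. Groups came from the sample titles. P-values reflect only how far these samples, each a pool of 3 mice, spread. Precision is limited by 3 arrays a group.

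The 9 genes and all lists were chosen with earlier results of these data known. Named were the 9 genes, every called gene of a list, up to 2 genes of smallest p of a list without one, Klf9, Hr, and the 5 nearest genes of Maob (the called gene of highest mean) and Th. Slc23a2, Slc6a3, Slc22a2, Aldh2, Hand2, Gata3, Scg5, Slc18a3, Chat, Aanat, Slc6a4, Sox10 and Erbb3 were named after their values were seen. Alternatives covered a replicate block, scaling, dim genes, probe sets, the variance model, array weights, thresholds and leaving out each array. Promoter windows came from RefSeq (GRCm38.p6).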

Additional observations from a re-analysis of the deposited data

How the results depend on the processing

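Of the 9 genes, 2 were called in the main analysis and also after renewed quantile normalization or centring on the array median or 75th percentile. There were also 2 without the dimmest 25% of genes and with trend and robust fitting. With the mean of probe sets, each probe set alone, or adjusted p under 0.1 there were 2 as well. Those last settings check little. Each of the 9 has 1 probe set, so its values stay the same, and a looser threshold cannot lose a call. The count was 1 without the dimmest 50% of genes, which leaves Dbh out, 1 at adjusted p under 0.01, 4 with array quality weights, and 1 to 2 without any 1 array. Over all genes 618 were called, against 3548 with array quality weights and 191 to 640 without any 1 array (191 without control replicate 1). Of the listed genes outside the 9, markers included, 20 were called, against 46 with array quality weights and 8 to 18 without any 1 array, alternatives added for these lists after the data were seen. The cause was not tested.

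With the replicate number as a block, 472 genes, 2 of the 9 and 15 of the listed genes were called. Deviations of same-numbered samples correlated at 0.18, 0.02 and 0.00017, and 2 of the 3 T3 samples correlated best with another number, so the numbers were not treated as pairs.

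Signs of small changes turned. Pnmt was at 0.014 after renewed quantile normalization, 0.021 after median centring and -0.12 to 0.10 without any 1 array. Slc6a2 was at -0.0016 after centring on the 75th percentile, -0.073 with array weights and -0.042 to 0.11 without any 1 array. The marker gene Cd68 was at 0.068 with array weights and -0.26 to 0.00020 without any 1 array, where Adra2c ran from -0.063 to 0.19, Tph2 from -0.084 to 0.0027 and Slc18a2 minus Slc18a1 from -0.027 to 0.050. Without detection calls, the dim genes Pnmt, Slc6a2 and Slc18a1 are limited by background. The same limit holds for dim genes of the lists. Examples are the serotonin genes (median control percentile 25.8), Gch1 (26.7), Gata3 (24.7), Chat (29.4) and Adra1b (28.4).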
